A study of Mus musculus with 24 samples.

Results

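The heat shock chaperones described here are 10 genes, Hspa1a, Hspa1b, Hspa8, Hsp90aa1, Hsp90ab1, Dnaja1, Dnajb1, Hsph1, Hspd1 and Hspe1. Each was taken from the count table by its symbol, and all 10 were found, among 54957 gene rows. They were measured by bulk RNA-seq in T cells sorted from B16F10-OVA tumours, a mouse melanoma line made to carry the model antigen ovalbumin.

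Heat shock chaperones bind unfolded protein, keep it from clumping and help it reach its final fold. In the cytosol, HSP70 proteins take up clients that J-domain proteins bring to them, HSP110 proteins reload HSP70 with ATP, and HSP90 finishes the folding of kinases, receptors and other signalling proteins. In mitochondria, the HSP60 chaperonin encloses imported proteins under a lid formed by HSP10. The constitutive members are abundant in any growing cell, whereas the inducible HSP70 genes are switched on by the heat shock factor HSF1 under protein stress, and T cells raise many chaperones when they are activated and start to divide.

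Mice bearing these tumours had received 200 µg of an isotype control antibody, of anti-PD-1 or of anti-JAML, and the tumours were taken 1 day later. Activated T cells carry PD-1, a receptor that dampens their signalling, while JAML belongs to the junctional adhesion proteins and is found on T cells and myeloid cells. From each treatment, Treg cells (regulatory T cells, sorted as CD4+FOXP3+) and CD8+ T cells were collected, which gave 6 groups of 4 libraries, 24 in all. Strain, sex and age of the mice, and how FOXP3 was detected in the sort, were not given in the labels. Each library came from fewer than 400 cells and was made by Smart-seq2, a full-length amplification method for small inputs, and the labels do not tell whether different mice gave the 4 libraries of each group. The spread behind the p-values is that between libraries and may be technical.

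Library totals lay between 11170918 and 22556460 counts, and 12643 to 15356 genes were detected. Some defining markers of the sorted populations were at or near 0 in the other one: Foxp3 had no count in any CD8 library, Cd8a was at 0 in the Treg libraries after isotype and anti-JAML and averaged 0.0333 CPM (a count divided by its library's total, TMM-scaled) in those after anti-PD-1, and Cd4 was at 0 in 2 of the 3 CD8 groups. Others were not: Cd8b1 was at 12.3 to 48.3 CPM in the Treg libraries, against 679 to 1246 CPM in CD8 libraries, and Ikzf2, a Treg marker, was at 39.2 to 331 CPM in CD8 libraries, against 636 to 1693 CPM in Treg libraries. The Treg marker Il2ra was at 24.4 to 98.8 CPM in CD8 libraries and 141 to 410 CPM in Treg libraries. Ctla4 was at 85.0 to 186 CPM in CD8 libraries and 666 to 1335 CPM in Treg libraries. Summed levels of 9 macrophage and monocyte markers were 20.1 to 97.7 CPM in Treg isotype libraries but reached 775 and 1141 CPM in Treg anti-PD-1 libraries 1 and 4, and 460 CPM in CD8 anti-JAML library 2. Summed levels of 5 erythroid markers (globin genes and Alas2) were at most 8.69 CPM in 19 libraries and reached 1373 CPM in Treg anti-JAML library 4, 694 CPM in Treg anti-PD-1 library 1, 498 and 405 CPM in CD8 anti-JAML libraries 2 and 4, and 276 CPM in CD8 isotype library 3. The highest summed level over all libraries was 218 CPM for dendritic cell markers, 161 CPM for NK cells, 93.1 CPM for stroma and endothelium, 89.6 CPM for melanoma, 53.1 CPM for B and plasma cells and 3.04 CPM for neutrophils. Mitochondrial transcripts made up 1.2% to 6.89% of the counts, with CD8 anti-JAML library 4 highest.

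The known route to induction of this family runs through heat shock elements, in which the unit NGAAN repeats in alternating orientation. Stretches of promoter windows that hold such repeats are therefore printed first. Promoter windows of RefSeq (build GRCm38.p6, 250 bases before to 50 after a start site) were found for 7 of the 10 genes, Hspa1a, Hspa1b, Dnaja1, Dnajb1, Hsph1, Hspd1 and Hspe1. By the GENCODE positions given below, the Dnaja1 stretch and the Hsph1 repeat lie inside their genes. They are upstream only of a later RefSeq start. The Hspe1 stretch is upstream of Hspe1 but inside Hspd1. Each line gives a stretch 5′ to 3′ on the gene's strand, and capitals mark the inverted repeat of the unit.
Hspa1a, chr17:34972207-34972376, minus strand: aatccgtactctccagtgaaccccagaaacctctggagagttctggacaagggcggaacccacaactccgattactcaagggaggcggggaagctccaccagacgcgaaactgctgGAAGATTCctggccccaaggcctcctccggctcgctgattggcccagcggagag
Hspa1b, chr17:34959289-34959458, minus strand: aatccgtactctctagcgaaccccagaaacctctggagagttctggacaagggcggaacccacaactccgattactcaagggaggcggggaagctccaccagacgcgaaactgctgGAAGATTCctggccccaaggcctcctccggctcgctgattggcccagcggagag
Hspe1, chr1:55088053-55088082, plus strand: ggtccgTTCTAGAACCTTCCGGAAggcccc
Hsph1, chr5:149636351-149636380, minus strand: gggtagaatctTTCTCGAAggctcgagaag
Dnaja1, chr4:40722333-40722362, plus strand: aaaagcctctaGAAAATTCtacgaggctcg

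The short motif, GAANNTTC or TTCNNGAA (each reads the same on both strands), stood in windows of 6 of these 7 genes, all but Dnajb1. Counted by window, it stood in 7 of their 12 windows and in 15.1% of all 32851 RefSeq windows. A row of 4 units, TTCNNGAA repeated after a gap of NN, was found in 5 windows of the 32851 (0.0152%). Of those 5, 1 belongs to Hspe1 and 1 to Hspd1, and they are the same stretch, because these genes lie head to head on chromosome 1 and share it. The promoters of Hspa1a and Hspa1b are near copies: 2 of the 170 printed bases and 4 of the 300 in the whole windows differ. A CCAAT box (CCAAT or ATTGG, the same motif on either strand) occurred in windows of 6 of the 7 genes. Counted by window, it occurred in 8 of their 12 windows and in 37.4% of all windows. A match is a description of the letters and was not tested for binding.

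The 10 genes lie on 7 chromosomes in mm10 (GENCODE M21 positions). HSP70 genes of the inducible kind sit side by side on chromosome 17, Hspa1a at 34969190-34972156 and Hspa1b at 34956436-34959238, both on the minus strand. Hsp90ab1 is on the same chromosome at 45567775-45573271. Hspd1 (chromosome 1, 55077835-55088243, minus strand) and Hspe1 (chromosome 1, 55088132-55091307, plus strand) overlap by 112 bases. The others are Hspa8 (chromosome 9, 40800984-40810087), Hsp90aa1 (chromosome 12, 110690605-110702728), Dnaja1 (chromosome 4, 40722150-40737149), Dnajb1 (chromosome 8, 83608193-83612653) and Hsph1 (chromosome 5, 149614287-149636376).

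How reads that fit more than 1 gene were counted is not given in the sources used here, and the members differ in how exposed they are. Of the 50-base words in the Hspa1a transcripts, 58.8% also occur in Hspa1b, and 62.3% of those of Hspa1b occur in Hspa1a, so the levels of both may be too low and their split is uncertain. Hspa1a also overlaps the antisense gene Gm20481, which had 0 counts in all 24 libraries. Other genes, among them copies elsewhere and neighbours that overlap a member, share 47.5% of the words of Hsp90aa1, 42.1% of Hspd1, 39.4% of Hspa8, 22.8% of Hspe1 and 20.6% of Dnaja1. AC117239.2, which shares 17.9% of the words of Hspe1, was not among the copies counted. The counted copies of these genes carried few counts: Gm15459 had at most 0.880% of the counts of Hspa8, Hspd1-ps3 at most 0.449% of Hspd1, Gm15542 at most 0.968% of Dnaja1, and Gm12346 at most 2.09% of Hsp90aa1. The exception was Gm10501, a copy of the inducible HSP70 genes, which had counts in 8 of 24 libraries, up to 49 counts and up to 125% of the counts of Hspa1a. Low counts of copies or of Gm20481 do not bound what the members lost. They would also be low if reads that fit more than 1 gene were dropped. Hsp90ab1 (3.44%), Dnajb1 (0.412%) and Hsph1 (0%) are nearly or fully unique.

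Levels of different genes were compared on the authors' TPM scale, which allows for transcript length. It does not allow for the unequal sharing of words given above, whose part in the order was not tested. Hsp90ab1, the constitutive cytosolic HSP90, averaged 1323 TPM over the 24 libraries, and Hspa8, the constitutive cytosolic HSP70, 1166 TPM. Hsp90ab1 was the higher in 14 of 24 libraries, and their order went with the group. TPM of Hspa8 divided by that of Hsp90ab1 was 1.16 to 1.44 in the 4 Treg isotype libraries, but 0.627 to 0.895 in Treg and 0.729 to 0.949 in CD8 libraries after anti-PD-1. In CD8 isotype (0.904 to 1.09), Treg anti-JAML (0.7 to 1.17) and CD8 anti-JAML libraries (0.680 to 1.02) it lay on both sides of 1. Next came Hspe1 (mitochondrial HSP10, 426 TPM), Hsp90aa1 (the inducible HSP90, 350 TPM) and Hspd1 (mitochondrial HSP60, 261 TPM), and each of these exceeded the next in 18 to 20 of 24 libraries, Hspd1 being set against Dnajb1. The J-domain genes Dnajb1 and Dnaja1 averaged 117 and 79.4 TPM, with Dnajb1 higher in 22 libraries. Hsph1, an HSP110, averaged 20.7 TPM. Hspa1a and Hspa1b, the inducible HSP70 genes, were lowest at 6.23 and 2.54 TPM, and Hsph1 lay above Hspa1a in 22 of 24 libraries. Between adjacent ranks the ranges over libraries overlapped throughout, and 2 neighbouring pairs kept their order in all 24 libraries, Hspa8 over Hspe1 and Dnaja1 over Hsph1.

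The members also differed in how steady they were. The coefficient of variation between the 4 libraries of a group, as a median over the 6 groups, was lowest for Hspd1 (10.99%) and Hspa8 (12.7%) and highest for Hspa1b (91.8%) and Hspa1a (69.8%). For all tested genes the same median was 46.2%. Hspe1 stood at 43.3% and Hsph1 at 38.3%, above Hsp90aa1 (25.6%), Dnajb1 (20.2%), Hsp90ab1 (18.4%) and Dnaja1 (15.8%).

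**Figure D1:**
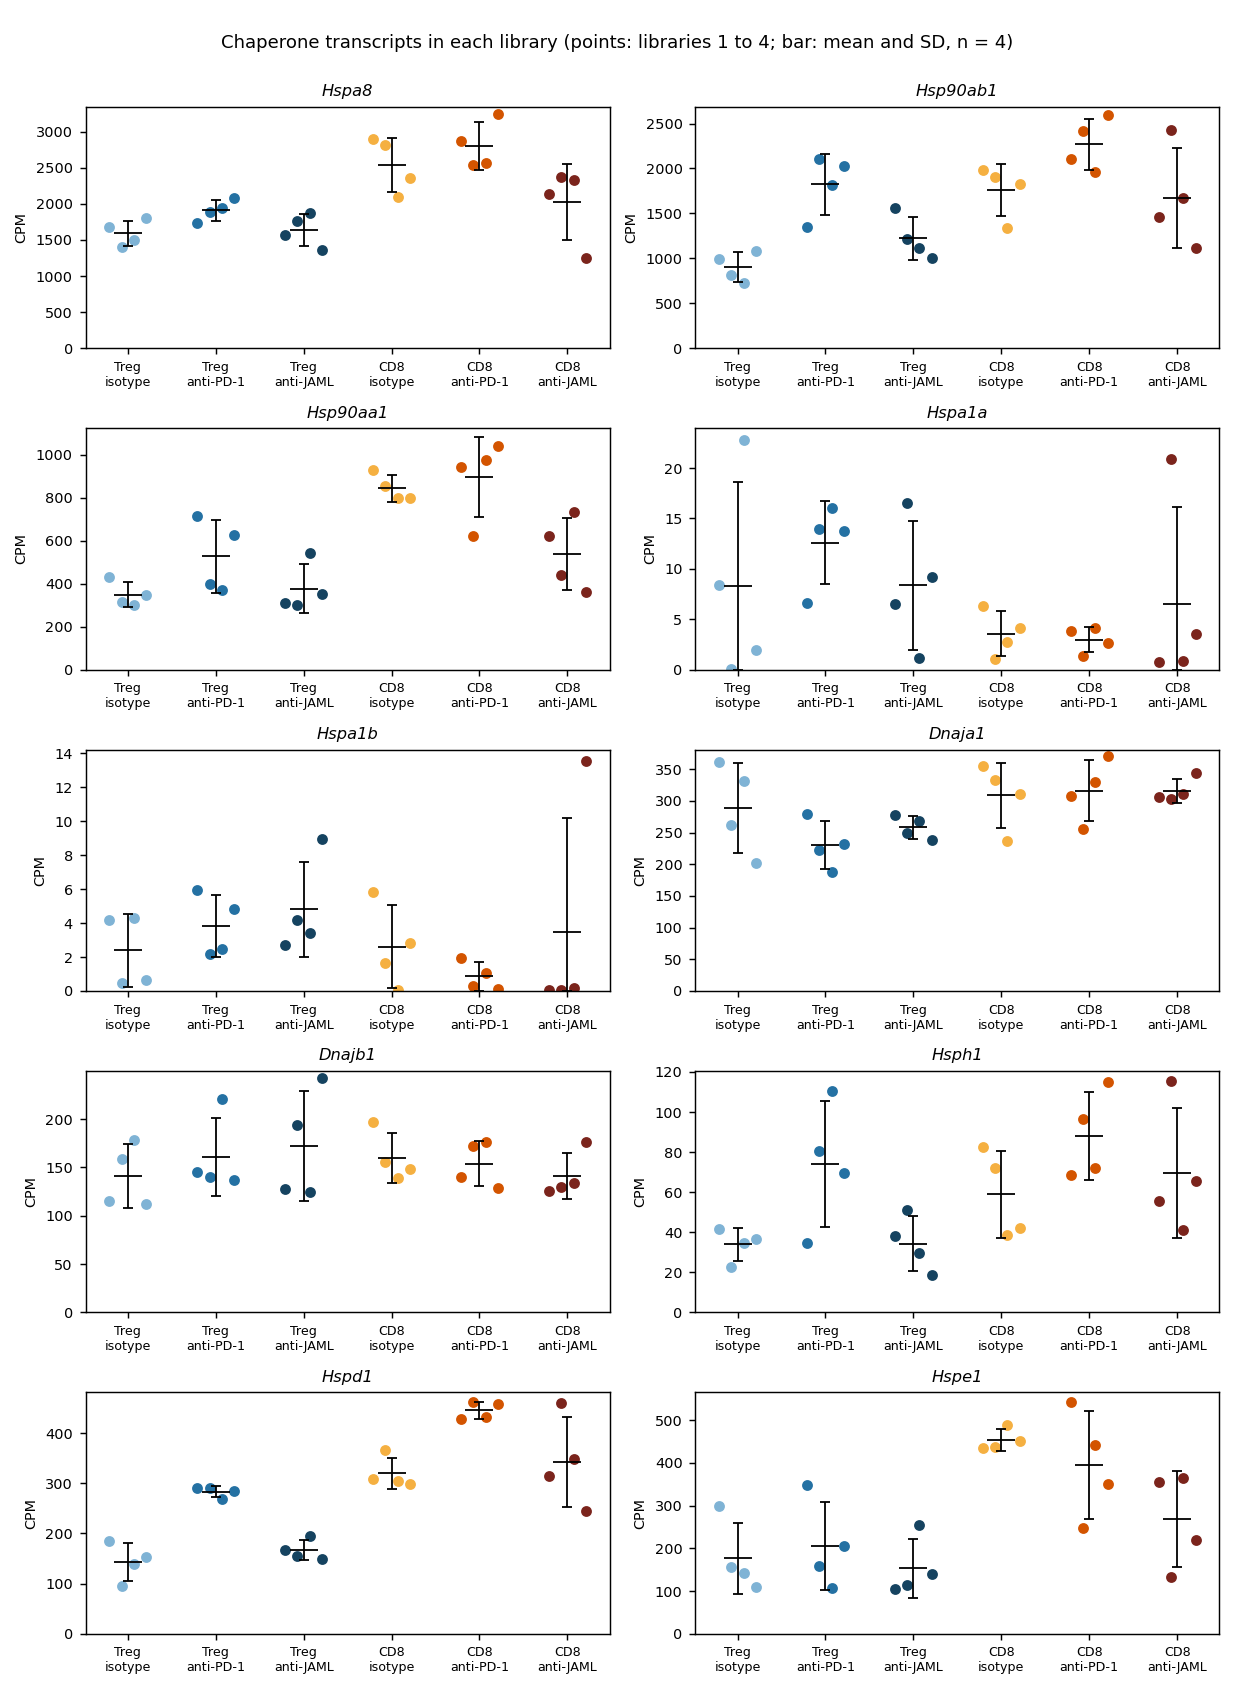
CPM (linear axis from 0) of each chaperone in the 24 libraries, grouped by cell population and antibody; points are libraries 1 to 4 from left to right, bars the mean and SD, cut at 0. Hspd1 lies at 268 to 291 CPM in the Treg anti-PD-1 libraries and at 94.7 to 195 CPM in the other Treg libraries, while Hspa1a and Hspa1b spread widely within groups.

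The first comparison asked how CD8 and Treg cells differed with no active antibody. In isotype-treated mice, 5 of the 10 chaperones were higher in CD8 cells and 0 were lower, where 15.3% of the 11680 genes tested differed in either direction and 8.21% were higher in CD8 cells. That background of 1791 genes ran from 1117 (without CD8 isotype 2, and 1147 without CD8 isotype 1) to 2125 (without Treg isotype 1) with 1 library left out. The 5 were both HSP90 genes, the constitutive HSP70 and the mitochondrial pair. Libraries did not overlap for 5 of the 10, beside 26.6% of all genes. In pooled cells, fewer transcripts per cell and fewer cells that express a gene cannot be told apart.

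Hsp90aa1, the inducible HSP90, stood at 429, 314, 303 and 347 CPM in Treg isotype libraries 1 to 4 and at 928, 852, 796 and 798 CPM in the CD8 ones. The groups were far apart, and the level was 2.31-fold higher in CD8 cells (log2 1.21 ± 0.14, SE, edgeR quasi-likelihood test with Benjamini-Hochberg adjustment, adjusted p = 0.000795). Its constitutive relative Hsp90ab1 was at 997, 813, 722 and 1081 CPM in Treg cells and 1984, 1908, 1343 and 1822 CPM in CD8 cells, again without overlap. The difference was 1.87-fold (log2 0.90 ± 0.17, edgeR adjusted p = 0.00809). Hspa8, which held most of the counted cytosolic HSP70 message, read 1672, 1398, 1493 and 1796 CPM in Treg and 2891, 2807, 2090.1 and 2363 CPM in CD8 libraries. This was the smallest of the 5 differences, 1.52-fold (log2 0.61 ± 0.14, edgeR adjusted p = 0.0170), and it passed 0.05 when any of 5 libraries was left out but not without Treg isotype 2 (0.0506), CD8 isotype 1 (0.0579) or CD8 isotype 2 (0.0585).

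Hspd1, the chaperonin, gave 186, 94.7, 139 and 154 CPM in Treg isotype libraries and 309.6, 367, 305 and 298 CPM in CD8 isotype libraries. Every CD8 value exceeded every Treg value, a 2.13-fold difference (log2 1.09 ± 0.20, edgeR adjusted p = 0.00702). Its lid Hspe1 ran from 110.1 to 298 CPM in Treg cells (298, 156, 143 and 110.1 CPM) and was tightly grouped in CD8 cells (436, 438, 489 and 452 CPM). CD8 cells were 2.44-fold higher (log2 1.29 ± 0.28, edgeR adjusted p = 0.0146). Hsph1 read 41.8, 22.6, 34.8 and 36.6 CPM and 82.5, 72.0, 38.7 and 42.2 CPM in Treg and CD8 libraries and did not pass (log2 0.73 ± 0.32, edgeR adjusted p = 0.172).

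The remaining members, Hspa1a, Hspa1b, Dnaja1 and Dnajb1, had log2 differences between -1.29 (Hspa1a) and 0.11 (Dnajb1) and edgeR adjusted p between 0.600 and 0.988. More genes were detected in the CD8 isotype libraries (14095 ± 210, SD, n = 4) than in the Treg isotype libraries (13264.5 ± 763). With the number of genes detected in the model, 2 of the 5 calls remained, Hsp90aa1 (edgeR adjusted p = 0.0115) and Hspe1 (0.0321), and the others moved to 0.0534 (Hspd1), 0.0719 (Hsp90ab1) and 0.109 (Hspa8), with log2 differences of 1.06, 0.68 and 0.51.

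After anti-PD-1, 1 chaperone was higher in CD8 than in Treg cells and 1 lower, where 7.83% of 12193 genes were called, 3.63% higher and 4.21% lower. That background of 955 genes itself ran from 396 (without CD8 anti-PD-1 4) to 1900 (without Treg anti-PD-1 1) when each library was left out. The higher one was Hspd1, at 290.3, 291, 268 and 285 CPM in Treg and 429, 463, 433 and 457 CPM in CD8 libraries. Both groups were narrow and well apart, 1.56-fold (log2 0.65 ± 0.14, edgeR adjusted p = 0.0230). The lower one was the inducible Hspa1a, at 6.62, 14.0, 16.04 and 13.7 CPM in Treg cells and 3.87, 1.33, 4.12 and 2.61 CPM in CD8 cells, from 87, 182, 257 and 240 counts and 53, 23, 71 and 43 counts. Its groups did not overlap, and the level was 4.23-fold lower in CD8 cells (log2 -2.08 ± 0.55, edgeR adjusted p = 0.0447). Summing the counts of Hspa1a with those of its near copy Hspa1b, so that the split of reads between them does not matter, gave log2 -2.10 ± 0.49 (edgeR adjusted p = 0.0304).

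Most fits with 1 library fewer lost both calls, while the log2 differences stayed within 0.60 to 0.67 for Hspd1 and -2.29 to -1.83 for Hspa1a. With any 1 of Treg anti-PD-1 libraries 2, 3 or 4, or of CD8 anti-PD-1 libraries 1, 3 or 4, left out, neither passed, and without CD8 anti-PD-1 2 a single call was made. Macrophage markers were high in Treg anti-PD-1 libraries 1 and 4. With both left out, an alternative chosen after seeing the data, Hspa1a stood at log2 -2.33 (edgeR adjusted p = 0.0451), and Hspd1, Hspe1 and Hsp90aa1 passed as well. Hspa1b (5.93, 2.15, 2.50 and 4.80 CPM in Treg, 1.97, 0.289, 1.05 and 0.122 CPM in CD8) did not overlap either, nor did Hspa8, so 4 of the 10 did not overlap, where 17.5% of the genes did not.

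A further 4 members of that comparison had an unadjusted p under 0.05 without passing, where 24.1% of all genes had such a p. They were Hspa8 (log2 0.54 ± 0.16, edgeR adjusted p = 0.0652), Hsp90aa1 (0.76 ± 0.26, 0.110), Hspe1 (0.94 ± 0.36, 0.146) and the J-domain gene Dnaja1 (0.45 ± 0.19, 0.170). Hsp90ab1, which differed between the populations after isotype, was at log2 0.31 after anti-PD-1, the highest of the other 4 members.

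After anti-JAML, 0 of the 10 differed between CD8 and Treg cells, where 2.08% of 11950 genes did (248 genes, and from 82, without Treg anti-JAML 2, to 328, without CD8 anti-JAML 2). Hspd1 came nearest, at 168, 156, 195 and 149 CPM in Treg and 315, 460.2, 348 and 245 CPM in CD8 libraries. The lowest CD8 library, number 4, still exceeded the highest Treg library, and the fitted difference was 1.93-fold (log2 0.95 ± 0.23, edgeR adjusted p = 0.0695), which became 0.0391 without CD8 anti-JAML 4. Dnaja1 did not overlap either (278, 249, 268 and 238 CPM in Treg, 306, 303, 311 and 344 CPM in CD8), with log2 0.20 ± 0.17. That makes 2 of 10 without overlap, beside 11.2% of all genes. The other 9 members had edgeR adjusted p between 0.390 and 0.948.

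**Figure D2:**
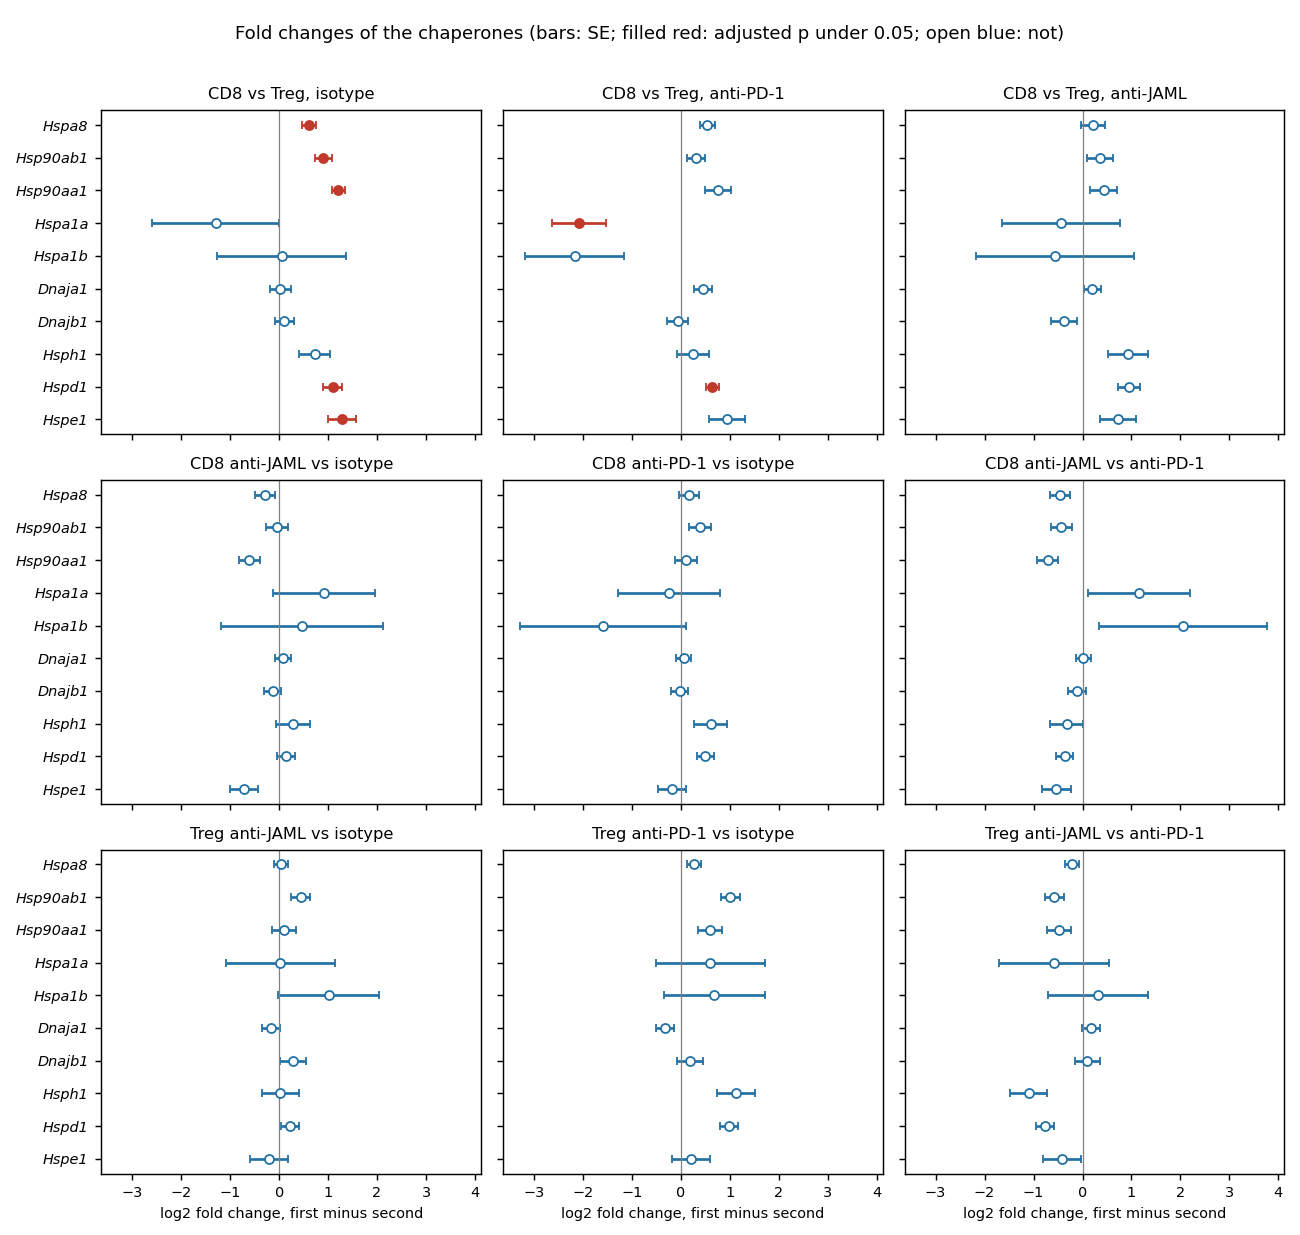
Log2 fold changes of the 10 chaperones (x axis, first group minus second) with SE bars in the 9 comparisons between groups; filled red points passed an edgeR adjusted p of 0.05, open blue ones did not. Red points appear for 5 genes between CD8 and Treg cells after isotype, for 2 after anti-PD-1, and in none of the 6 antibody comparisons.

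The antibody comparisons asked whether anti-PD-1 or anti-JAML moved the chaperones 1 day later, and anti-PD-1 and anti-JAML share the isotype libraries as their control. In Treg cells, 0 of 10 members passed after anti-PD-1, where 0.0231% of 12981 genes (3 genes) did, a background that ran from 0 (without Treg isotype 3, Treg anti-PD-1 2 or Treg anti-PD-1 3) to 122 genes (without Treg isotype 4) with 1 library left out. Unadjusted p under 0.05 was reached by 4 members, each with a positive change, beside 14.1% of all genes, and by DESeq2 2 members and 623 genes passed. The fitted log2 change was positive in 9 of the 10, with a median of 0.60. Over all tested genes, 52.4% were positive and the median was 0.0442.

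Hspd1 showed the clearest separation. Against the Treg isotype values given above (94.7 to 186 CPM), all 4 anti-PD-1 libraries lay between 268 and 291 CPM. The fitted change was 1.98-fold (log2 0.98 ± 0.19, edgeR adjusted p = 0.0782, DESeq2 adjusted p = 0.000103). Hsp90ab1 lay at 722 to 1081 CPM after isotype and at 1353, 2104, 1819 and 2024 CPM after anti-PD-1. It did not overlap either, 2.02-fold (log2 1.01 ± 0.20, edgeR adjusted p = 0.0880, DESeq2 adjusted p = 0.000129). These were the only 2 members without overlap, beside 8.22% of all genes. Both passed in edgeR without Treg isotype 4 (0.0456 and 0.0404), and Hsp90ab1 also without Treg anti-PD-1 1 (0.0470).

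Hsph1 was higher in 3 of the 4 Treg anti-PD-1 libraries, at 34.6, 80.5, 111 and 69.8 CPM, with library 1 inside the isotype range of 22.6 to 41.8 CPM. The fit gave log2 1.12 ± 0.39 (edgeR adjusted p = 0.212). Hsp90aa1 read 714, 397, 369 and 624 CPM after anti-PD-1, and the high values were libraries 1 and 4, the 2 with high macrophage markers. Its change was log2 0.59 ± 0.24 (edgeR adjusted p = 0.289) and 0.16 without those 2 libraries. Without them, Hspd1 stayed at log2 0.98 and Hsp90ab1 at 1.14.

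The other 6 members had log2 changes from -0.33 (Dnaja1) to 0.68 (Hspa1b). Hspa8, for instance, was at 1589.7 ± 179 CPM after isotype and 1912 ± 144 CPM after anti-PD-1 (SD, n = 4), with overlapping libraries and a 95% interval of the log2 change from -0.042 to 0.57 (from the SE and the t distribution of the test). Genes detected also differed between these groups, 13264.5 ± 763 after isotype and 14720.0 ± 500 after anti-PD-1. With that number in the model the log2 change of Hsp90ab1 was 0.46, of Hsph1 0.44 and of Hspd1 0.84, each with an edgeR adjusted p of 1.00.

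For Treg cells after anti-JAML against isotype, 0 of the 10 passed, where 0% of 12981 genes did, and 0 members lacked overlap with isotype, where 2.7% of genes lacked it. Unadjusted p under 0.05 was reached by 5.38% of genes and by 1 member, Hsp90ab1, at 1556, 1217, 1119 and 1003 CPM after anti-JAML. Library 4 lay inside the isotype range and the other 3 above it. The log2 change was 0.44 ± 0.20 (edgeR adjusted p = 0.903), and it was 0.017 with the number of genes detected in the model. Hspd1 was at 167 ± 20.2 CPM after anti-JAML and 143 ± 37.8 after isotype, with a 95% interval of the log2 change from -0.19 to 0.63. DESeq2 called 0 members here too, among 87 genes.

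Set against each other in Treg cells, anti-JAML and anti-PD-1 differed in 0 of 10 members, where 0% of the genes passed. Hspd1 was the 1 member without overlap (4.58% of genes), lower after anti-JAML by log2 -0.76 ± 0.19 (edgeR adjusted p = 0.555, DESeq2 adjusted p = 0.0110). Hsp90ab1 (-0.57 ± 0.20, 0.765) and Hsph1 (-1.10 ± 0.39, 0.765) had an unadjusted p under 0.05, beside 5.72% of genes. The Hsph1 libraries after anti-JAML were at 37.9, 51.0, 29.7 and 18.8 CPM, and all but library 2 were in or below the isotype range.

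In CD8 cells, 0 of 10 members passed after anti-PD-1, where 0% of 12648 genes did, while DESeq2 called 22 genes and 0 members. Hspd1 was again without overlap, from 298 to 367 CPM after isotype to 429 to 463 CPM after anti-PD-1, as was 6.85% of all genes. The change was 1.42-fold (log2 0.50 ± 0.18, edgeR adjusted p = 0.865), and it was the only member with an unadjusted p under 0.05 (5.61% of genes). It was 0.28 with the number of genes detected in the model. The other 9 had log2 changes from -1.59 (Hspa1b) to 0.61 (Hsph1), with 5 of them positive, beside 53% of all genes.

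After anti-JAML, 0 of 10 chaperones differed from isotype in CD8 cells, where 0% of genes passed and 11.7% had an unadjusted p under 0.05. DESeq2 called 210 genes and 0 members. Hsp90aa1 and Hspe1 were both below isotype in every library, and 9.13% of all genes lacked overlap. Hsp90aa1 lay at 622, 439, 732 and 361 CPM, against 796 to 928 CPM after isotype, log2 -0.61 ± 0.22 (edgeR adjusted p = 0.356). Hspe1 was at 357, 134, 365 and 221 CPM, against 436 to 489 CPM, log2 -0.72 ± 0.29 (edgeR adjusted p = 0.396).

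CD8 anti-JAML libraries 2 and 4 held the lowest values of both genes. Library 2 had the smallest total of all 24 and high macrophage markers, and library 4 the highest mitochondrial share. Erythroid markers were at 498 and 405 CPM in libraries 2 and 4 and at 2.87 and 0.314 CPM in libraries 1 and 3. The part of these in the lower values was not tested. Without both, the log2 change of Hsp90aa1 was -0.28 and that of Hspe1 -0.29. Library 2 was not low in all chaperones, since it had the highest Hsp90ab1 (2425 CPM), Hsph1 (116 CPM) and Hspd1 (460 CPM) of its group, as the list of Hsp90ab1 values, 1462, 2425, 1672 and 1111 CPM, shows. The other 8 members ranged from log2 -0.29 (Hspa8) to 0.91 (Hspa1a).

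Between the antibodies in CD8 cells, 0 of 10 passed, where 0.00791% of 12648 genes (1 gene) did, against 262 genes and 0 members by DESeq2. Hsp90aa1 was at 940.4, 623, 974 and 1042 CPM after anti-PD-1, and the anti-JAML libraries differed from these by log2 -0.71 ± 0.22 (edgeR adjusted p = 0.257), with CD8 anti-PD-1 library 2 inside the anti-JAML range. Hspa8 was at 2135, 2365, 2331 and 1249 CPM after anti-JAML and 2864, 2530.2, 2561 and 3239.7 CPM after anti-PD-1, the 1 member without overlap (5.92% of genes). Its log2 difference was -0.45 ± 0.20 (edgeR adjusted p = 0.473), and it was -0.040 with genes detected in the model. The 2 had an unadjusted p under 0.05, beside 9.97% of genes.

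Whether an antibody acted differently in the 2 populations was tested with interaction terms over all 24 libraries. For each antibody, 0 of 10 members and 0% of 14591 genes passed in edgeR, while DESeq2 called 0 members and 283 genes for anti-JAML and 201 for anti-PD-1. At an unadjusted p under 0.05, 8.39% of genes and Hsp90aa1 stood out for anti-JAML. Its change in CD8 cells minus that in Treg cells was log2 -0.76 ± 0.35 (edgeR adjusted p = 0.563), and -0.42 without CD8 anti-JAML libraries 2 and 4. For anti-PD-1 it was 6.25% of genes and Hsp90ab1, with log2 -0.65 ± 0.30 (edgeR adjusted p = 0.755). Hspd1, higher after anti-PD-1 in both populations though past the threshold in neither, had an interaction of log2 -0.51 ± 0.26 (edgeR unadjusted p = 0.0617, adjusted p = 0.816), with a 95% interval of -1.04 to 0.027.

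The inducible HSP70 genes Hspa1a and Hspa1b, the usual readout of acute protein stress, varied most between libraries. Hspa1a was at 8.36, 0.0890, 22.8 and 1.94 CPM in Treg isotype libraries, 6.52, 16.5, 1.15 and 9.19 CPM in Treg anti-JAML, 6.33, 1.02, 2.78 and 4.11 CPM in CD8 isotype and 0.781, 20.9, 0.816 and 3.57 CPM in CD8 anti-JAML. The Treg isotype libraries rested on 161, 2, 384 and 30 counts, so that library 2 held almost none and library 3 the most of all 24. Over all libraries counts ran from 2 to 384 for Hspa1a and from 1 to 197 for Hspa1b, and reads copied by PCR, with no molecular identifiers, do not each stand for 1 molecule.

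Hspa1b stood at 4.21, 0.445, 4.27 and 0.646 CPM in Treg isotype, 2.73, 4.18, 3.40 and 8.95 CPM in Treg anti-JAML and 5.86, 1.62, 0.0730 and 2.84 CPM in CD8 isotype libraries. In CD8 anti-JAML it was near 0 in 3 libraries and high in library 4 (0.0651, 0.0751, 0.188 and 13.5 CPM), whereas Hspa1a there was high in library 2. The share of Hspa1a in the sum of both ran from 16.7% to 99.6%, with a median of 74.5%. As a sum, the pair ran from 12.6 to 18.5 CPM in Treg anti-PD-1, 1.62 to 5.84 CPM in CD8 anti-PD-1 and 0.534 to 27.1 CPM in Treg isotype libraries. Outside the comparison of CD8 with Treg cells after anti-PD-1, the summed pair passed in none of the other 10 comparisons (edgeR adjusted p from 0.686 to 1.00).

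Even at its highest, the inducible pair was a small part of the cytosolic HSP70 message as counted. Summed TPM of Hspa1a and Hspa1b was 0.0577% to 2.65% of that of Hspa8, with a median of 0.533%. Other genes share 66.3% of the words of Hspa1a and 62.3% of Hspa1b, against 39.4% for Hspa8. Gm20481 also overlaps 2225 bases of Hspa1a, so these percentages may be too low. The group medians were 1.28% in Treg anti-PD-1 and 1.30% in Treg anti-JAML libraries, 0.661% in Treg isotype, and 0.317%, 0.209% and 0.674% in CD8 isotype, anti-PD-1 and anti-JAML libraries. Only the anti-PD-1 comparison separated the populations without overlap in CPM, as given above.

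The J-domain genes, which hand clients to HSP70, passed in no comparison. Dnaja1 read 361, 262, 331 and 202 CPM in Treg isotype and 354, 334, 237 and 311 CPM in CD8 isotype libraries, with broad overlap. Dnajb1, the partner of the inducible HSP70, read 115, 159, 178 and 112 CPM and 196, 155, 139 and 148 CPM. Over the 9 comparisons between groups, log2 differences stayed between -0.33 and 0.45 for Dnaja1 and between -0.38 and 0.29 for Dnajb1. For CD8 against Treg after isotype, the 95% interval was -0.45 to 0.49 for Dnaja1 and -0.34 to 0.56 for Dnajb1. Single libraries stood above their group, with Dnajb1 at 221 CPM in Treg anti-PD-1 library 3 and 243 CPM in Treg anti-JAML library 4, the library with the highest erythroid markers.

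Neither the mitochondrial pair nor the related cytosolic HSP90 genes kept a fixed ratio. TPM of Hspe1 divided by that of Hspd1 ran from 0.520 in CD8 anti-JAML library 2 to 2.96 in Treg isotype library 2, with a median of 1.84. It was 2.56 ± 0.32 (SD, n = 4) in CD8 isotype and 1.28 ± 0.62 in Treg anti-PD-1 libraries. Hsp90ab1 exceeded Hsp90aa1 in all 24 libraries, by 2.21 times in CD8 isotype library 3 and up to 7.24 times in CD8 anti-JAML library 2, with a median of 3.19. Other genes share 47.5% of the words of Hsp90aa1 and 3.44% of Hsp90ab1. The part of unequal read loss in this ratio was not tested. Together the 10 genes made up 0.201% to 0.628% of all TPM, from 0.237% ± 0.0438 in Treg isotype to 0.506% ± 0.0695 in CD8 anti-PD-1 libraries.

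**Figure D3:**
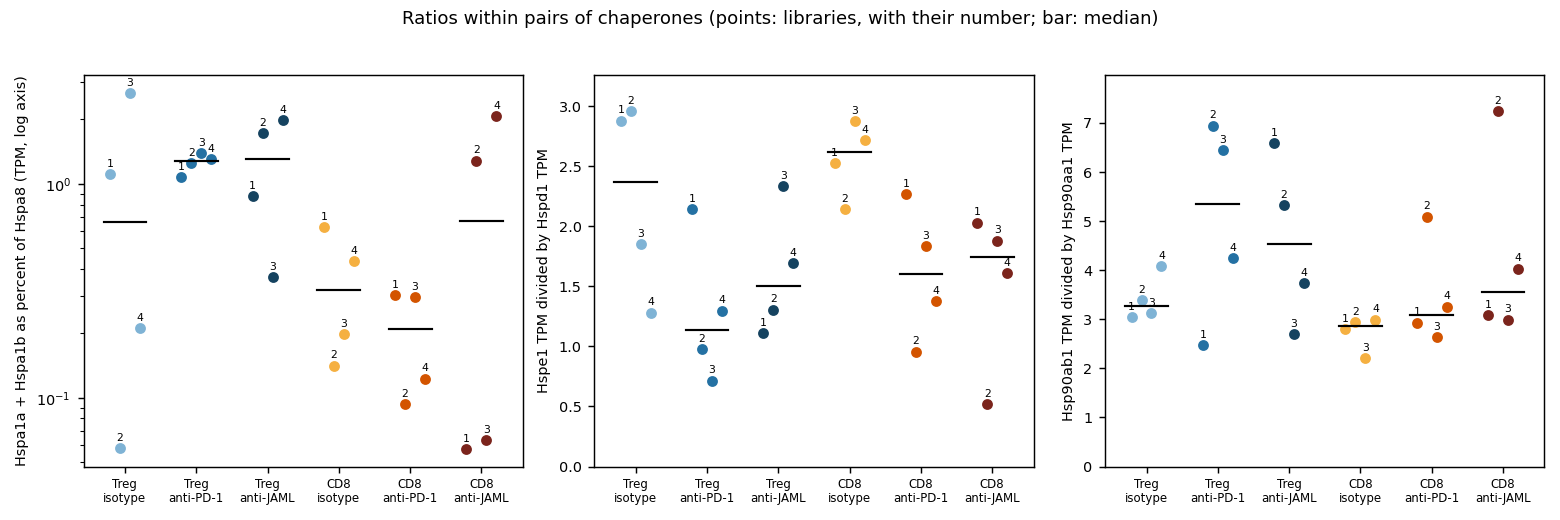
Ratios within chaperone pairs in each library, on the TPM scale: inducible HSP70 as a percentage of Hspa8 (log axis), Hspe1 over Hspd1, and Hsp90ab1 over Hsp90aa1 (linear axes from 0); points carry the library number and bars are group medians. CD8 anti-JAML library 2 has the lowest Hspe1 to Hspd1 ratio (0.520) and the highest Hsp90ab1 to Hsp90aa1 ratio (7.24).

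Other genes of the folding machinery were read from lists for CD8 against Treg cells after isotype, where 8.21% of genes were higher and 7.12% lower in CD8 cells and the median of all genes was log2 -0.0596. All 8 subunits of TRiC, the cytosolic chaperonin for actin and tubulin, were higher, with a median of log2 1.14, for example Cct7 (log2 1.22 ± 0.14, edgeR adjusted p = 0.000793) and Cct6a (1.52 ± 0.20, 0.00148). Of 14 HSP90 co-chaperones 6 were higher and 0 lower, with a median of 0.51, led by Fkbp4 (1.78 ± 0.24, 0.00191) and by Stip1, which joins HSP70 to HSP90 (1.44 ± 0.20, 0.00193). Co-factors that regulate HSP70 gave 2 of 9 higher, Hspbp1 (1.56 ± 0.17, 0.000479) and St13. Mitochondrial chaperones and proteases gave 2 of 10 higher, Grpel1, the exchange factor of mitochondrial HSP70, and Clpp, a protease subunit.

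Among 16 other J-domain genes, Dnajb6, Dnajc2 and Dnajc9 were higher and Dnajc1 lower. Of 5 tested relatives of HSP70 and HSP110, Hspa14 was higher (log2 0.74 ± 0.14, edgeR adjusted p = 0.00821) and Hspa4l lower (-1.23 ± 0.35, 0.0429). In the endoplasmic reticulum 3 of 8 were higher, Sdf2l1 (1.45 ± 0.22, 0.00330), Dnajb11 and the HSP90 of that compartment, Hsp90b1. Heat shock factors and their regulators gave 0 of 5 in either direction, with a median of -0.56, and small heat shock proteins 0 of the 3 that passed the count filter, of 8 listed.

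The list of immediate early and handling genes, many of them induced within minutes by stimulation or by tissue handling, moved the other way. In it, 7 of 16 were lower in CD8 cells and 0 higher, with a median of -1.11. Among the lower ones were Dusp1 (log2 -1.98 ± 0.16, edgeR adjusted p = 0.000139), Egr1 (-1.97 ± 0.22, 0.000659) and Junb (-1.51 ± 0.17, 0.000698). Of 9 tested other stress-inducible genes, the metallothionein Mt1 was higher and Txnip, Gadd45b and Sqstm1 lower. What part these have in the chaperone differences was not tested.

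After anti-PD-1 the same lists were read for CD8 against Treg cells, where 3.63% of genes were higher and 4.21% lower. Of 8 TRiC subunits 6 were higher (median log2 0.71, all genes -0.0505), and of 14 HSP90 co-chaperones 4 (Fkbp4, Cacybp, Ppid and Stip1). Higher too were 2 of 16 other J-domain genes (Dnajb6 and Dnajc2), 2 of 9 co-factors of HSP70 (Bag2 and Hspbp1) and 1 of 8 endoplasmic reticulum genes (Sdf2l1). Lower were 5 of 16 immediate early and handling genes (Junb, Egr1, Dusp1, Zfp36 and Nr4a1) and 1 of 10 other stress-inducible genes (Gadd45b). The remaining lists gave 0 in either direction. After anti-JAML, where 2.08% of genes were called, 0 of 8 TRiC subunits passed (median 0.46, all genes -0.0254). The co-chaperone Ppid (log2 1.08 ± 0.22, edgeR adjusted p = 0.0342) and the exchange factor Bag2 (2.04 ± 0.45, 0.0499) were higher, and Dusp1 and Zfp36 lower.

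No gene of these lists passed in any of the 6 antibody comparisons or the 2 interactions by edgeR. In Treg cells after anti-PD-1 the smallest p belonged to Cct7 (log2 0.78 ± 0.14, edgeR adjusted p = 0.0705), Stip1 (1.13 ± 0.22, 0.0782) and Cct6a (1.07 ± 0.21, 0.0880). All 8 TRiC subunits had a positive log2 change there, with a median of 0.49. Over all genes, 52.4% were positive and the median was 0.0442. The 8 endoplasmic reticulum genes had a larger median, log2 1.00, with 6 positive and 2 negative. In CD8 cells, anti-JAML against anti-PD-1 came nearest with Sdf2l1 (-1.03 ± 0.15, 0.0505), Dnajb11 (-1.04 ± 0.21, 0.119) and Hsp90b1 (-0.74 ± 0.16, 0.125), all chaperones of the endoplasmic reticulum and lower after anti-JAML. There 0 of 8 TRiC subunits and 0 of 14 HSP90 co-chaperones had a positive value, with medians of -0.46 and -0.33. Over all genes, 51% were positive and the median was 0.0154.

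**Figure D4:**
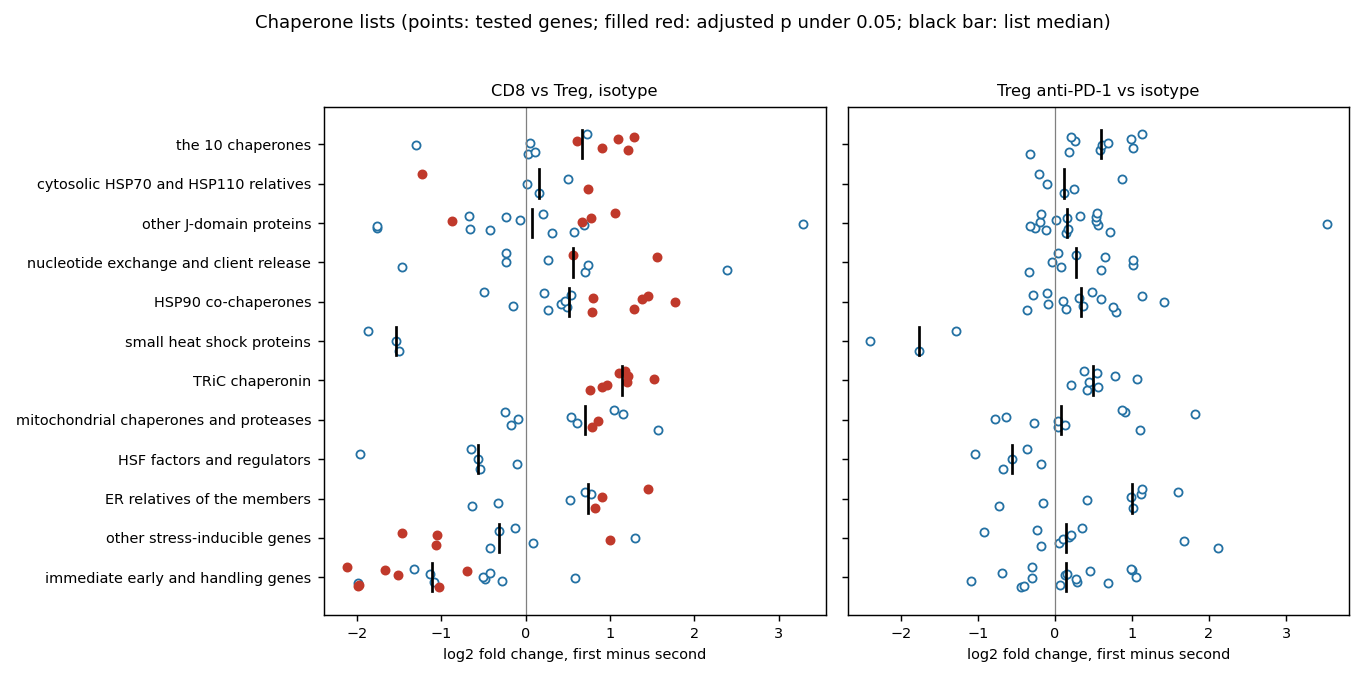
Log2 fold changes (x axis) of every tested gene in the chaperone and stress lists for CD8 against Treg cells after isotype (left) and for Treg cells after anti-PD-1 against isotype (right); filled red points passed an edgeR adjusted p of 0.05 and black bars are list medians. The TRiC genes lie to the right of 0 in both panels, and points are red in the left panel alone.

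Across the 24 libraries, with each gene centred within its population, the genes most like the mean of the 10 chaperones were Psat1, an enzyme of serine synthesis (Pearson r 0.836), Cct7 (0.833), Impdh2, an enzyme of guanine nucleotide synthesis (0.805), Mrfap1 (0.803) and Stip1 (0.803). These values share the libraries and their scaling and are a description. Among the members themselves, Hspd1 followed the mean most closely (0.758) and Dnajb1 (0.159) and Dnaja1 (0.170) least, with Hspe1 at 0.388. Each member is itself part of that mean, which raises its value, so these are not comparable with the values of the other genes.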

How the data were processed

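RNA of 24 libraries (6 groups of 4) was read from 2 tables. For the same libraries the authors deposited one table of unnormalized read counts per gene and one of TPM, which scales by transcript length. The submitters' processing notes name deepTools 3.3.1, SAMtools, STAR 2.7.3a and fastp 0.20.1, and the build mm10, with no role or order. Strand setting, counting tool and annotation: not given in the sources used here. Of the gene IDs, 98.64% match an ID and version of GENCODE M21. All rows carried a gene ID.

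The members and lists were chosen with earlier results of these data known. Counts were tested in R 4.3.3 with edgeR 4.0.16 (TMM, filterByExpr with a minimum count of 10 and total of 15, robust quasi-likelihood F test, two-sided, Benjamini-Hochberg over all genes tested, threshold 0.05). An antibody comparison used the 12 libraries of its population, CD8 against Treg the 8 of that antibody, and an interaction all 24. SE is the absolute log2 change divided by the square root of F, and 95% intervals use the t quantile at the test's degrees of freedom. TPM was used to set genes against each other and CPM, scaled by TMM over 24 libraries, for all else. Alternatives were DESeq2 1.42.0, RLE, no count filter, Hspa1a and Hspa1b summed, the library number as a block, genes detected as a covariate, each library left out, CD8 anti-JAML 2 and 4 left out, and, chosen after seeing the data, Treg anti-PD-1 1 and 4 left out.

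Members past 0.05 or with an unadjusted p under 0.05 are named with their fold, and from each list at most 4 genes past 0.05, or where none passed, the 3 of all lists with the smallest p. Markers of other cells covered macrophages, dendritic, B, NK, melanoma, stromal and erythroid cells and neutrophils. On simulated counts with 100 genes changed by log2 2 in each, edgeR recovered 44 for CD8 anti-JAML against isotype (11984 genes), 26 for Treg anti-JAML against isotype (12134 genes), 34 for CD8 against Treg isotype (11023 genes) and 14 for the anti-JAML interaction (13790 genes). At log2 1 it recovered 10, 2, 3 and 2 of 100. The changed genes were drawn at random from all filtered genes. Most of the chaperones varied less between libraries than the median gene, so these rates do not give the power for them.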

Additional observations from a re-analysis of the deposited data

Results flagged for a closer look

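In 5 of 60 sets of 4 libraries, 1 library stood far from the other 3 of its group, where chance gives about 3 (1 in 20). Hspa1a was at 20.9 CPM in CD8 anti-JAML library 2, against 0.781 to 3.57 CPM in the others. Hspa1b was at 13.5 CPM in CD8 anti-JAML library 4, against 0.0651 to 0.188 CPM. Dnajb1 was at 221 CPM in Treg anti-PD-1 library 3, against 136 to 146 CPM, and at 177 CPM in CD8 anti-JAML library 4, against 125 to 133 CPM. Hspd1 was at 367 CPM in CD8 isotype library 2, against 298 to 310 CPM. Of the 5, 3 lie in CD8 anti-JAML libraries 2 and 4, which also held the lowest Hsp90aa1 and Hspe1 of that group. What sets these libraries apart was not tested.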

How the results depend on the processing

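No fold change of a named member reversed under any alternative: of 496 recomputed values for 28 folds, 458 kept their side of the threshold, 22 lost it and 16 gained it. Only folds that passed in the main fit could lose it. For CD8 against Treg after anti-PD-1, Hspa1a lost it in 9 of 15 alternatives and Hspd1 in 7 of 15. After isotype, Hspa8 lost it in 4 of 14, Hsp90ab1 and Hspd1 in 1 of 14 each, and Hsp90aa1 and Hspe1 in 0 of 14. The counts of members past 0.05 moved as follows. DESeq2 gave 2 for Treg anti-PD-1 against isotype (0 in edgeR), 1 for Treg anti-JAML against anti-PD-1 (0), 4 for CD8 against Treg after anti-PD-1 (2) and, in the anti-JAML groups, 1 (0). With genes detected as a covariate, CD8 against Treg after isotype gave 2 in place of 5. CD8 against Treg after anti-PD-1 gave 0 with no filter on low counts, where Hspd1 had an edgeR adjusted p of 0.0540, and 4 without Treg anti-PD-1 1 and 4. Leaving out each library gave 0 to 2 for Treg anti-PD-1 against isotype, 4 to 5 for CD8 against Treg after isotype, 0 to 5 after anti-PD-1 (5 without Treg anti-PD-1 1) and, in the anti-JAML groups, 0 to 1. RLE normalization and the summed pair changed none of these counts.

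Library numbers are shared between groups, and the labels do not say what they mark. Over 60 same-numbered pairs the correlation of deviations ran from -0.176 to 0.147, 3 of them over 0.1. Over 180 pairs with different numbers it ran from -0.180 to 0.163, 12 of them over 0.1. Of 24 libraries, 7 correlated best with their own number. Low correlations between libraries of so few cells cannot show whether a number marks a shared mouse. With the replicate block, CD8 against Treg after anti-PD-1 gave 1 member (Hspd1), and the counts of the other comparisons did not move. Depth limits mainly Hspa1a and Hspa1b, with as few as 2 and 1 counts in a library.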
